A study of Homo sapiens with 8 samples.

Results

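A set of 692 genomic intervals carried anti-ac4C reads mainly in 1 library, that of HOS cells with sgNAT10. They were chosen by their counts: an interval had to hold at least 30 raw reads in HOS sgNAT10, and its CPM (reads per 1000000 counted over all intervals of a library) had to be at least 8 times those of each other library. Of 31395 intervals, 692 met this rule, which is 2.20% of all intervals and 4.62% of the 14964 intervals with 30 or more reads in HOS sgNAT10. The same rule with another library in the lead picked 93 intervals for the 143B library labelled sgNAT10 (0.296%), 30 for 143B NC (0.0956%) and 6 for HOS NC (0.0191%). Because the rule used all 4 libraries, the counts below are a description of the members and carry no test.

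HOS and 143B are human osteosarcoma cell lines, and 143B was derived from HOS. Each line was grown as a control (NC) and as cells carrying a guide against NAT10 (sgNAT10), and the labels list 1 acRIP and 1 input sample for each of these groups, 8 samples in all. Poly(A) RNA was fragmented and precipitated with an antibody to ac4C. The 4 groups here are therefore single libraries with no replicate, and nothing in the labels says whether a knockout line came from 1 clone. Intervals in the 2 deposited tables are shared by all 4 libraries, and starts are printed as the tables hold them, on GRCh38.

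NAT10 is the acetyltransferase that writes N4-acetylcytidine, ac4C, on ribosomal RNA, transfer RNA and, in reported maps, messenger RNA. In an acRIP library, the count over an interval depends on how much of that RNA is present and on how much of it the antibody retains. The genes most often hit here are receptor tyrosine kinases, membrane proteins that bind a growth factor outside the cell and phosphorylate partners inside it. Several of them are mutated or fused in cancers, and several are best known from neural, endothelial or epithelial tissue rather than bone.

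Total counts over all intervals were 20107718 in 143B NC, 22365529 in the 143B library labelled sgNAT10, 24785306 in the HOS control and 21132328 in HOS sgNAT10. NAT10 (Gene ID 55226) held 1 interval, chr11:34146656-34146807, with 180 counts (7.26 CPM) in HOS NC and 63 (2.98 CPM) in HOS sgNAT10. In 143B the order was the other way, with 65 counts (3.23 CPM) in NC and 130 (5.81 CPM) in the library labelled sgNAT10. The NAT10 count thus did not fall with the label there. These are antibody-recovered reads over 1 interval, and they check the labels only in part.

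No genome sequence of the members was used here, except where they meet the promoter table. There, 7 members overlapped 8 of 35116 promoter windows of the RefSeq table (GRCh38.p14, 250 bases before to 50 after a gene's start), and 4 of these reached far enough upstream of the start to be shown. Each stretch shown holds only bases before the start of the gene named. It does not stand for the members as a whole, nor for that gene's RNA from that start. Each is printed on the strand of the gene named, with capitals marking matches, on either strand and allowing overlaps, to CNNCNNCNNCNN, a repeat of C every 3 bases of the kind reported in ac4C-enriched mRNA regions.
SLC30A4-AS1, chr15:45448510-45448658, plus strand: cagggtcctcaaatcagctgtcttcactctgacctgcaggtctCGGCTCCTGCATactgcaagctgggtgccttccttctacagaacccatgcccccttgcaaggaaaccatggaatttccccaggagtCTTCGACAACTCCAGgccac
LOC105371001, chr15:96551835-96551947, minus strand: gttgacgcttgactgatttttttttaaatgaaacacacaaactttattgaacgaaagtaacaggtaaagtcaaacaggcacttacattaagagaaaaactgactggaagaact
AFF3, chr2:100105584-100105747, minus strand: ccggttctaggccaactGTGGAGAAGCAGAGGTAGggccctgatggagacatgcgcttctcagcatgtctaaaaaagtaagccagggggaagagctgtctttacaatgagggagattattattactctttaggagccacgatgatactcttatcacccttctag
PAX8-AS1, chr2:113235277-113235526, plus strand: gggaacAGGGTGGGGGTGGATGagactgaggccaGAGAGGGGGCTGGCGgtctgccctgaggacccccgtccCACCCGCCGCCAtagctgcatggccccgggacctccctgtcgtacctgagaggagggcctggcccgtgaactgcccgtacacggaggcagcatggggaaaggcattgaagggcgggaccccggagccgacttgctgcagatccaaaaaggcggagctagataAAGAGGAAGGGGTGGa

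The motif is common, so a match says little about one stretch. The SLC30A4-AS1 stretch held 3 matches on the gene's strand and none on the other, and 73.6% of the 35116 promoters hold at least 1 match within the same bases. LOC105371001 had no match, against 65.4% of promoters over its bases, and its GC content was 32.7% where the median of all promoters was 55.8%. AFF3 had 3 matches, all on the strand opposite the gene (80.4% of promoters hold one over those bases), and PAX8-AS1 had 1 on its own strand and 7 on the other (86.8%). The intervals behind these stretches held 42, 70, 51 and 493 reads in HOS sgNAT10 and 3, 0, 5 and 13 in HOS NC. Whether the counts use strand was not given in the sources used here, so reads of PAX8 and of PAX8-AS1, which overlap in the last of them, cannot be told apart.

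Over the 692 members the median raw count was 65 in HOS sgNAT10, with quartiles of 43 and 118 and a range of 30 to 25864. The other libraries were near empty there: the medians were 2 in 143B NC, 2 in the 143B library labelled sgNAT10 and 1 in HOS NC. As 1 read is worth 0.0403 to 0.0497 CPM, most of these values lie at the limit of counting. In HOS NC 288 members had no read and 502 had at most 3, and in 143B NC the same numbers were 183 and 444. In the 143B library labelled sgNAT10, 179 members had no read and 471 had at most 3. Only 55 members had no read in any of the other 3 libraries, and 330 had at most 3 in each of them. A count of 0 allows up to 3 reads, or 0.121 CPM in HOS NC, 0.149 in 143B NC and 0.134 in the 143B library labelled sgNAT10, against a median of 3.08 CPM in HOS sgNAT10.

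**Figure D1:**
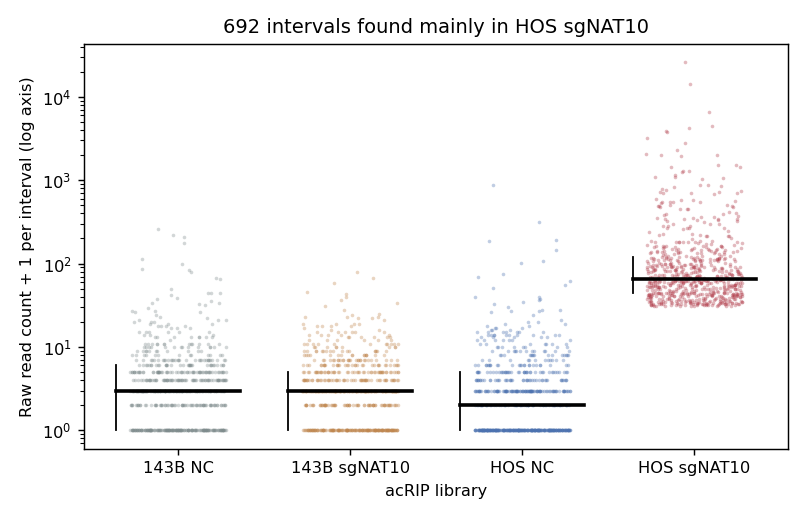
Raw read counts (plus 1, log axis) of the 692 members in the 4 acRIP libraries, 1 point per interval and library. The wide bars mark medians (2, 2, 1 and 65 reads before the 1 is added) and the thin lines the quartiles. The points of HOS sgNAT10 start at 30, the minimum that the rule set.

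Members made up 0.797% of all HOS sgNAT10 counts (168504 reads) and 0.0119% to 0.0209% of the counts of the other libraries. This sum was uneven. A single interval in ABCG1 held 15.3% of it and the top 10 held 42.5%, while 477 members had under 100 reads, 189 had 100 to 999 and 26 had 1000 or more. Among the 637 members with any read elsewhere, the library with the next highest CPM was 143B NC for 309, the 143B library labelled sgNAT10 for 182 and HOS NC for 146. HOS sgNAT10 was a median of 18 times that next library. The fold limit fell within a continuous range: 107 members lay between 8 and 10, and 167 other intervals with 30 or more reads lay between 6 and 8. Just inside were an interval in JAK3 (8.02-fold; 7, 1, 2 and 59 reads in 143B NC, the 143B library labelled sgNAT10, HOS NC and HOS sgNAT10), one in MAN1C1 (8.02) and one outside genes on chromosome 21 (8.01). Just outside were intervals in HDAC9 (7.98-fold; 34 reads) and FGFR2 (7.97; 134 reads) and one outside genes on chromosome 14 (7.95; 61 reads). Of the count limit, 71 members had 30 to 34 reads, and 49 intervals missed it at 25 to 29 reads with the fold met, among them intervals of DLG2, FLT1 and NTRK3 at 29.

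By gene spans of the RefSeq table, 406 members (58.7%, exact 95% interval 54.9 to 62.4, counting error only) lay in protein-coding genes, 55 (7.95%) in long noncoding RNA genes, 19 (2.75%) in pseudogenes and 16 over several genes that could not be separated. The other 196 (28.3%, 25 to 31.8) lay outside annotated genes. Neighbouring members share a transcript, so these intervals are narrower than the true uncertainty. Among all intervals 48.9% lay in protein-coding genes, 10.2% in long noncoding RNA genes, 1.54% in pseudogenes and 36.9% outside genes. Among intervals with 30 or more reads in HOS sgNAT10 that were no members, the shares were 63.1%, 6.41%, 1.6% and 25.5%. The shares outside genes were 56.7% (17 of 30) for the intervals picked for 143B NC, 48.4% (45 of 93) for the 143B library labelled sgNAT10 and 33.3% (2 of 6) for HOS NC. Chromosome 21 had the highest proportion of its intervals among the members (41 of 596, 6.88%), followed by chromosome 15 (45 of 881, 5.11%), and chromosome 17 the lowest (11 of 1080, 1.02%). A few genes carried the top values. ABCG1, TMPRSS2 and CLDN14 held 14, 9 and 6 of the members on chromosome 21, and NTRK3 and SLC30A4-AS1 22 and 9 of those on chromosome 15.

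Widths of the members fell into classes. The median was 182 bp (quartiles 104 and 238), against 135 bp over all intervals. Exactly 104 bp was the width of 181 members (26.2%), and a further 173 (25%) measured 170 to 190 bp, a band that held 7.47% of all intervals. Widths of 105 to 149 bp were found in 6.94% of members and in 48.5% of all intervals. Of the 1130 intervals of 104 bp in the table, 957 (84.7%) had their highest CPM in HOS sgNAT10. Each library had a commonest width of its own among the intervals picked for it: 98 bp for 143B NC (15 of 30), 108 bp for the 143B library labelled sgNAT10 (25 of 93) and 95 bp for HOS NC (6 of 6). The same held over the whole table: 73.1% of 98 bp intervals were highest in 143B NC, 75.9% of 108 bp intervals in the 143B library labelled sgNAT10 and 78.8% of 95 bp intervals in HOS NC. In which libraries each interval was called is not given in the sources used here.

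**Figure D2:**
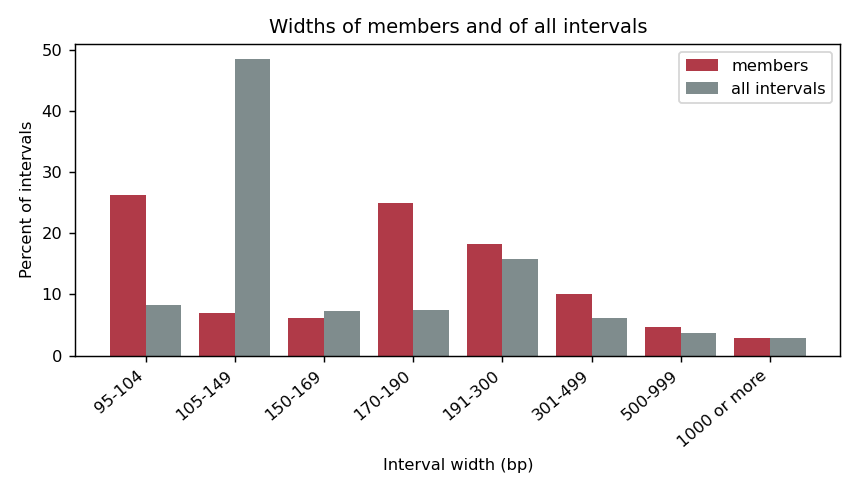
Percentage of intervals in each width class (bp) for the 692 members and for all 31395 intervals. Members stand above the table at 104 bp and below (26.2% have exactly 104 bp) and at 170 to 190 bp (25% against 7.47%), and below it at 105 to 149 bp (6.94% against 48.5%).

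Members were often neighbours of each other in the table. Of the 692, 247 (35.7%) stood next to another member with no other interval between, in 77 runs of which the longest had 17 intervals. For the intervals picked for 143B NC and for the 143B library labelled sgNAT10 this share was 6.67% and 5.38%, and none of the 6 picked for HOS NC were neighbours. The 480 members that could be assigned to a single gene lay in 243 genes, 2.67% of the 9096 genes with an interval. Most of these, 191 genes, held 1 member, 34 held 2 to 4, and 18 held 5 or more with 197 members between them. Within 1 gene, the 237 gaps between successive members had a median of 2423 bp (quartiles 742 and 8794) and ran from 111 to 724561 bp. Of these gaps 71 were under 1000 bp, 109 were 1000 to 9999 bp and 57 were 10000 bp or more. Exons of a gene can be laid out in this way, as short stretches set apart by kilobases. No exon coordinates were used here, so overlap with exons was not measured. Gaps between other intervals are not given, so the spacing is not shown to be particular to members.

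Receptor tyrosine kinases held the largest group. Of 51 genes in a list of this family, 39 had an interval and 17 had a member (43.6%, against 2.66% of the 6772 protein-coding genes with an interval). Together they held 154 members, out of 394 intervals in the family. The list was drawn up with results of these data known, so its share is a description. All 17 genes are also in the cancer panel list read below, and no kinase outside that panel held a member. Outside the panel, EPHA2 had 0 of 5 intervals highest in HOS sgNAT10, EPHB2 1 of 4 and INSR 3 of 4. No interval of EPHA4, EPHA5, EPHB1, EPHB6, MUSK, ROR1, ROR2, RYK or TEK, also outside the panel, was highest there. In HOS sgNAT10 these 154 intervals had 30 to 279 reads with a median of 56, and in the other libraries the medians were 2, 2 and 1 and the maxima 17, 22 and 25. Scaled to length, they held a median of 25.8 reads per 100 bp (quartiles 21.1 and 30.1). In each of the 12 kinase genes with 5 or more members, the members together held 21.6 to 37.2 reads per 100 bp. Counts followed width, with a Spearman correlation of 0.72 over these 154 intervals, which share a library.

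The neurotrophin receptors were the most heavily represented branch. NTRK3, the receptor for neurotrophin-3 (chr15:87859751-88256739), held 22 members among its 49 intervals, the most of any gene. Their summed counts were 5 in 143B NC, 13 in the 143B library labelled sgNAT10, 27 in the HOS control and 1189 in HOS sgNAT10, which is 56.3 CPM (exact Poisson 95% interval 53.1 to 59.6) against 1.09 CPM in HOS NC. Sums of the 4 libraries are given in this order for the other genes too. No single NTRK3 member exceeded 6 reads in HOS NC, and in HOS sgNAT10 they held 30 to 122. They were spread over 379 kb of the 397 kb gene, with a median gap of 7800 bp. Of the 27 NTRK3 intervals that missed the rule, 26 were highest in HOS sgNAT10, and 25 of the 27 had under 30 reads there. The 27 summed to 11, 36 and 37 reads in the other libraries. With so few reads elsewhere, their order adds no support to the pattern. NTRK2, the receptor for brain-derived neurotrophic factor, had 9 members on chromosome 9 (summed counts 12, 29, 17 and 466) with a median gap of 36922 bp.

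ALK, a receptor tyrosine kinase of the developing nervous system (chr2:29192774-29921586), had 20 members among 33 intervals. Their sums were 30, 55, 27 and 1580 reads, or 74.8 CPM (71.1 to 78.5) in HOS sgNAT10 against 1.09 CPM in HOS NC. The 20 ALK members held 34 to 218 reads each and were 146 to 790 bp wide. Of 13 further ALK intervals, 9 were highest in HOS sgNAT10, so 4 had another order. ROS1, a relative of ALK that is activated by fusion in some lung cancers (chr6:117287353-117425942), was nearly empty elsewhere: its 11 members summed to 6, 4 and 4 reads in the other libraries and to 633 in HOS sgNAT10. All 10 remaining ROS1 intervals were highest in HOS sgNAT10, and all 10 had under 30 reads there. They summed to 6, 2 and 0 reads in the other libraries. With so few reads elsewhere their order was nearly fixed, and it adds no support to the pattern. RET, the receptor for the GDNF family (chr10:43077069-43130351), had 13 members with sums of 50, 29, 10 and 983 reads. RET thus had more reads in 143B NC than in HOS NC, 2.49 against 0.403 CPM, while HOS sgNAT10 stood at 46.5 CPM.

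ERBB3 was the one gene among the 25 with most members in which every interval was a member. It encodes a neuregulin receptor that signals through its partner ERBB2 (chr12:56080108-56103505). Its 17 intervals had 32 to 113 reads in HOS sgNAT10 with a median of 57, and summed to 1078 there, to 10 in HOS NC, to 40 in 143B NC and to 54 in the 143B library labelled sgNAT10. Its highest value outside HOS sgNAT10 was 9 reads. The gaps were short, 115 to 3758 bp with a median of 625 bp, in a gene of 23.4 kb. ERBB4, another neuregulin receptor, spans 1163 kb, and its 10 members (7, 11, 4 and 608 reads) lay a median of 25319 bp apart. Of the 16 other ERBB4 intervals, 6 were highest in HOS sgNAT10, and they summed to 535 reads in the 143B library labelled sgNAT10 and 514 in HOS sgNAT10, so the pattern did not extend over the whole gene. ERBB2 itself had 1 member, chr17:39699521-39699640 (0, 0, 4 and 35 reads), though all its 11 intervals were highest in HOS sgNAT10. EGFR, the founding member of this branch, had 7 intervals and no member, with 1873, 590, 1758 and 2382 reads over the gene.

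PDGFRB, the platelet-derived growth factor receptor beta of mesenchymal cells (chr5:150113839-150155845), had 15 members among 19 intervals, summing to 36, 31, 39 and 976 reads. Its members held 35 to 99 reads each and a median of 834 bp lay between them. Its close relative PDGFRA had 11 intervals and no member, with 289, 241, 708 and 1131 reads. The receptors for vascular endothelial growth factors all had members. FLT4 had 7 (34, 28, 61 and 678 reads), FLT1 had 5 (6, 2, 8 and 211) and KDR had 4 (25, 32, 2 and 327). In KDR the 14 other intervals, and in FLT4 all but 1 of the 18 intervals, were highest in HOS sgNAT10. Among fibroblast growth factor receptors, FGFR2 had 5 members (7, 13, 17 and 251 reads), and its 13 other intervals were all highest in HOS sgNAT10. FGFR3 had 1 member, chr4:1806526-1807286, with 17, 22, 25 and 179 reads. FLT3 and KIT, receptors of blood progenitors, had 4 and 3 members with 36 to 47 and 35 to 59 reads in HOS sgNAT10.

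**Figure D3:**
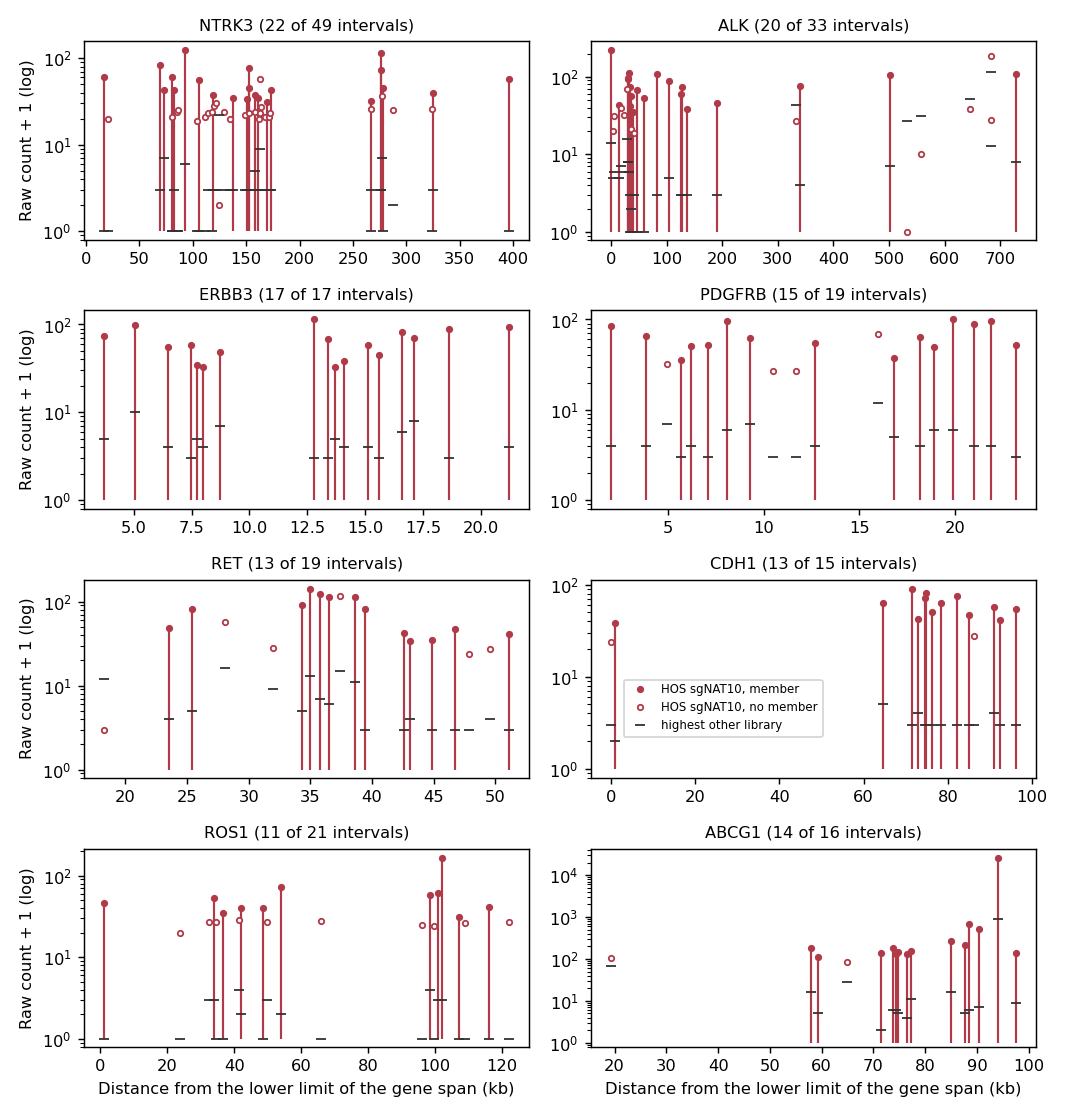
Raw counts (plus 1, log axis) along 8 of the named genes, plotted at the distance in kb from the lower coordinate limit of the gene span. Filled red points with stems are members and open circles are intervals of the gene that are no members, both in HOS sgNAT10, and dashes give the highest count among the other 3 libraries. In ERBB3 all 17 intervals are members, while NTRK3 has 22 of 49 and ROS1 11 of 21.

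Beyond this family, 11 other genes of a 202-gene cancer panel list held 44 members. Together with the 17 kinases, 28 of the 142 panel genes with an interval held one (19.7%, against 2.66% of protein-coding genes with an interval). This list, too, was drawn up with results of these data known. CDH1, E-cadherin, the adhesion molecule of epithelia (chr16:68737292-68835537), had 13 members in 15 intervals with sums of 28, 3, 5 and 762 reads. The 2 CDH1 intervals that were no members were highest in HOS sgNAT10, each with under 30 reads there. TMPRSS2, a serine protease of prostate and other epithelia, had 9 members of 161 to 745 bp (23, 8, 4 and 561 reads). ESR1, the estrogen receptor, had 5 (7, 17, 6 and 421 reads). JAK3, a cytokine-receptor kinase of lymphocytes, had 4 members (20, 5, 6 and 246 reads), and its 12 intervals were all highest in HOS sgNAT10. CDKN2A, which encodes cell cycle inhibitors, had 3 of its 4 intervals as members with 35, 61 and 99 reads, against at most 3 in HOS NC. GNAS, the stimulatory G protein alpha subunit, had 1 member in 9 intervals, chr20:58853281-58855335 (25, 39, 26 and 475 reads), while the whole gene held 6110, 4834, 13335 and 14202. WT1, a transcription factor of kidney and gonad, had 1 interval, and it was a member (5, 7, 4 and 149 reads). The 44 panel members outside the kinase family held a median of 21.6 reads per 100 bp (quartiles 19.2 and 26.9), near the 25.8 of the kinases.

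Separate lists of DNA repair and of RAS and PI3K pathway genes held members at a share near that of protein-coding genes as a whole (2.66%). Of 33 DNA repair genes with an interval, 1 held a member (3.03%), RAD51B, a homologous recombination gene, with 44 and 62 reads in 2 members. Of 16 RAS and PI3K pathway genes with an interval, BRAF alone held a member (6.25%; 5, 4, 5 and 55 reads). Of 15 genes listed as partners in fusions, mostly transcription factors, TMPRSS2 and PAX8 held members (13.3%). Repair genes had 96 of 129 remaining intervals (74.4%) highest in HOS sgNAT10, and RAS and PI3K genes 48 of 66 (72.7%). The kinase family had 178 of 240 (74.2%), all protein-coding genes 33.8%, and all non-members 24.9%. Of the 178 kinase intervals, all but those in EPHB2 and INSR lay in kinases of the cancer panel. With median-of-ratios scaling the repair share was 47.3%, the RAS and PI3K share 56.1%, the kinase share 70% and that of all protein-coding genes 26.8%. Repair examples were MUTYH (4 of 4 intervals; 54, 71, 118 and 443 reads over the gene), RAD51D (5 of 5; 41, 51, 97 and 329) and FANCF (2 of 2; 37, 38, 97 and 313). Over TSC1, a brake on mTOR signalling, all 13 intervals were highest in HOS sgNAT10 (204, 73, 399 and 1066 reads), and over NOTCH1 all 25 (777, 448, 898 and 2480). None of these genes held a member. TERT, the telomerase reverse transcriptase, had 13 of 13 intervals highest (123, 107, 166 and 634 reads), and RARA, a retinoic acid receptor, 18 of 18 (123, 48, 289 and 950), again with no member.

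**Figure D4:**
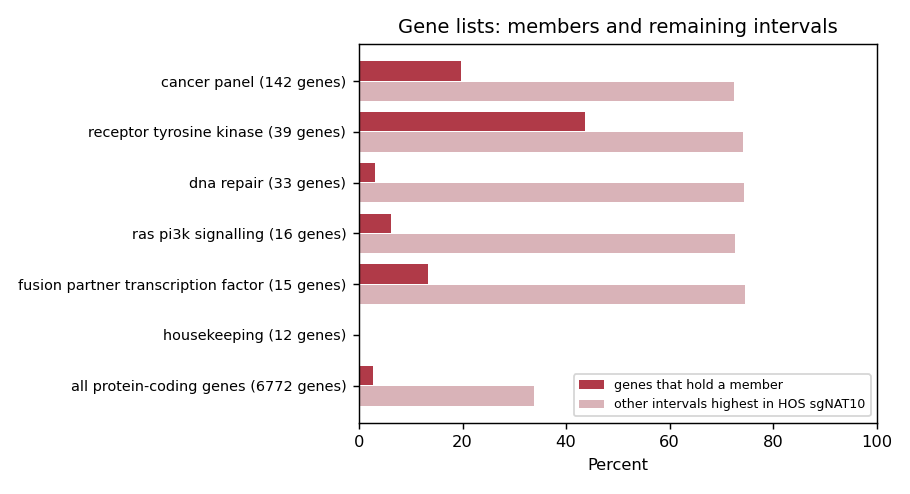
For each plotted gene list, the percentage of genes with an interval that hold a member, and the percentage of the list's non-member intervals with their highest CPM in HOS sgNAT10. Plotted are the cancer panel, kinase, DNA repair, RAS and PI3K, fusion partner and housekeeping lists and all protein-coding genes. The short tissue marker lists and the drug metabolism and transport list are not plotted. Kinases stand at 43.6% and 74.2%, DNA repair genes at 3.03% and 74.4%, and housekeeping genes at 0 for both.

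Short lists of markers of other tissues were read against the 2.67% of all genes with an interval that held a member. Of genes with an interval, 1 of 3 epithelial (33.3%), 2 of 5 thyroid and kidney (40%) and 1 of 3 endothelial markers (33.3%) held one, and 0 of 2 lymphoid and 0 of 4 neural markers did. With so few genes, a count of 0 says little. In the epithelial list CDH1 had members, KRT8 and KRT18 had intervals without members (675 and 1511 reads in HOS NC, 460 and 1220 in HOS sgNAT10), and EPCAM, KRT19, KRT5, KRT7 and CLDN4 had no interval. In the thyroid and kidney list TSHR and PAX8 held members and TG and UMOD were among those with intervals but no member. Of the endothelial list KDR held members, VWF and TEK had none in their 2 and 1 intervals, and PECAM1, CDH5 and CLDN5 had no interval. Neither of the 2 lymphoid genes with an interval (PTPRC with 5 and CD4 with 20 reads in HOS sgNAT10) nor the 4 neural ones (MAP2, TUBB3, NES and SNAP25) held a member. Summed over each list, HOS NC and HOS sgNAT10 had 2191 and 2492 epithelial reads, 259 and 1680 thyroid and kidney reads, 55 and 914 endothelial reads, 22 and 25 lymphoid reads, and 941 and 961 neural reads. These sums include the members themselves. Over the genes without a member they were 2186 and 1680 epithelial, 227 and 399 thyroid and kidney, and 37 and 59 endothelial reads. None of the 3 osteoblast genes with an interval held a member. RUNX2 and SP7, transcription factors of bone-forming cells, had 133 and 7 reads in HOS NC and 293 and 12 in HOS sgNAT10, ALPL had 6 in both, and COL1A1, COL1A2, SPP1, BGLAP and IBSP had no interval. The 22 intervals of 12 housekeeping genes included no member and none that was highest in HOS sgNAT10. In bulk RNA, fewer cells of a type and less RNA per cell cannot be told apart, and the part of other cells in these counts was not tested.

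Thyroid-related genes gave some of the wide members. TSHR, the thyrotropin receptor, had 4 members among 6 intervals (6, 11, 10 and 589 reads), with 446 of the HOS sgNAT10 reads in chr14:81142946-81144343. PAX8, which directs thyroid and kidney development, had 3 of 5 intervals as members, with 33, 83 and 493 reads in HOS sgNAT10 and 2, 2 and 13 in HOS NC. The widest PAX8 member, chr2:113234868-113236655, contains the PAX8-AS1 start shown above.

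In all, 20 members were 1000 bp or wider (2.89%, against 2.84% of all intervals), and they held 25.7% of member counts. The strongest lay near the upper coordinate limit of ABCG1, a cholesterol exporter (chr21:42199689-42297244), in chr21:42290934-42296661, and was 5727 bp wide. It held 260 reads in 143B NC, 79 in the 143B library labelled sgNAT10, 879 in the HOS control and 25864 in HOS sgNAT10. The other 13 ABCG1 members had 109 to 699 reads each in HOS sgNAT10. The ABCG1 members together stood at 1365 CPM (1350 to 1381) in HOS sgNAT10 and at 38.9 CPM in HOS NC. SLC30A4-AS1, listed as protein-coding in the annotation, had the second widest, chr15:45460376-45465088 (222, 57, 192 and 3810 reads), while its 9 members summed to 240, 71, 219 and 4568. CLDN14, a tight-junction claudin, had 6 members (184, 101, 524 and 4110 reads), of which the 2 widest are chr21:36497420-36500399 (111, 45, 318 and 2294) and chr21:36494426-36496677 (41, 22, 144 and 1302). These overlap CLDN14-AS1 as well, and reads of the pair cannot be told apart. All 15 further CLDN14 intervals were highest in HOS sgNAT10. SORCS2, a sorting receptor of neurons, had 2 adjacent wide members on chromosome 4 with 1502 and 581 reads in HOS sgNAT10 and 185 and 74 in HOS NC. SYNE3, a nuclear envelope protein, had 4 members within 7.11 kb (114, 48, 121 and 1363 reads), and 10 of its 11 other intervals were highest in HOS sgNAT10. SLX4, a scaffold for DNA nucleases that the repair list did not hold, had 4 members (62, 33, 65 and 677 reads). LINGO2, a neuronal membrane protein, had 4 (44, 23, 39 and 474), but only 6 of its 18 other intervals were highest in HOS sgNAT10.

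Wide members had more reads in the other libraries than the kinase members had. Their median counts in the other libraries were 42.5 in 143B NC, 22 in the 143B library labelled sgNAT10 and 47 in HOS NC, against 2, 2 and 1 for the kinases. The rule lets an interval with more HOS sgNAT10 reads hold more reads elsewhere. Wide members had a median of 584 reads in HOS sgNAT10 and of 1920 bp, against 56 reads and 210 bp for the kinases. The contrast thus follows in part from the rule and from width. Wide members outside genes included chr20:62502202-62505616 (44, 21, 55 and 1092 reads) and chr16:27305494-27306904 (82, 23, 69 and 1027 reads), the latter 6.85 kb from IL4R.

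A different kind of member was isolated and narrow. The 445 members with no neighbouring member included 173 (38.9%) of exactly 104 bp and 143 (32.1%) of 170 to 190 bp, against 3.24% and 12.1% of the 247 with a neighbour. Their density was a median of 41.3 reads per 100 bp but reached 7425, and the correlation of width with count was weak (Spearman 0.373 over 445 intervals). The highest was in DGKG, a diacylglycerol kinase, at chr3:186250412-186250605, 193 bp wide: 207 reads in 143B NC, 36 in the 143B library labelled sgNAT10, 12 in the HOS control and 14331 in HOS sgNAT10. It was the only member of its gene. CNTN6, a neural adhesion molecule, had a 174 bp member with 19, 10, 2 and 4246 reads and another, 104 bp wide, with 0, 1, 1 and 158. DNM3, a dynamin, had 1 member with 38, 17, 7 and 3229 reads, and INTS4, an Integrator subunit, 1 with 67, 13, 4 and 1936. GNAI1, an inhibitory G protein subunit, had 1 with 9, 5, 3 and 1514, and TMC7 had one of exactly 104 bp with 9, 5, 7 and 1247. In SYNPO2 (21, 14, 0 and 1146) and GUCY1A1 (17, 12, 0 and 1078), HOS NC had no read at all. FMNL3 differed in that HOS NC was the highest of the other libraries (17, 18, 60 and 1063).

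**Figure D5:**
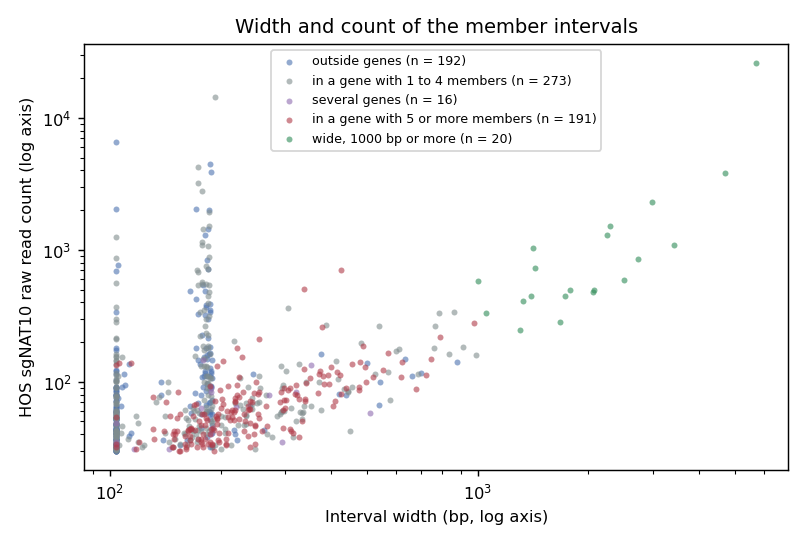
Width in bp against raw count in HOS sgNAT10 for the 692 members, both on log axes and coloured by place. Members in genes with 5 or more of them form a band in which count follows width, wide members extend it, and columns at 104 bp and at 170 to 190 bp hold isolated members from 30 to over 1000 reads.

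Members outside genes had the same narrow widths: 91 of 196 (46.4%) were exactly 104 bp and 68 (34.7%) were 170 to 190 bp. They held 30 to 6614 reads with a median of 69.5. The strongest, chr14:84906098-84906202, had 85, 20, 3 and 6614 reads and lay 92.1 kb from the nearest annotated gene. Next came chr9:122105247-122105434 (12, 5, 7 and 4477 reads), chr6:49222841-49223029 (44, 18, 4 and 3891) and chr4:45179783-45179887 (22, 3, 4 and 2052), the last 144 kb from a gene. Each of chrX:140175300-140175471 (2031 reads), chr13:108474557-108474743 (1994), chr7:54512191-54512376 (1440) and chr20:53796211-53796392 (1303) had at most 12 reads in any other library. Long noncoding RNA genes resembled them, with 55 members in 51 genes, of which 23 (41.8%) were 104 bp wide, and with LOC107985179 the strongest (26, 11, 2 and 2810 reads).

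Among narrow members with 1000 or more reads, 19 in all, the other libraries were not equally low. Their medians were 19 reads in 143B NC, 11 in the 143B library labelled sgNAT10, 4 in the HOS control and 1994 in HOS sgNAT10. In 17 of the 19 the CPM of 143B NC exceeded that of the 143B library labelled sgNAT10, and in 18 it exceeded that of HOS NC. Over all 692 members the same orders were found in 377 and 387. Of the 692, 330 have at most 3 reads in each of the other libraries, where their order cannot be read.

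Pseudogenes, copies of genes that usually make no protein, held 19 members in 12 loci with 40 to 144 reads in HOS sgNAT10. Copies of NF1, a RAS inhibitor, gave 3 of these loci. NF1P9 had 3 members (3, 18, 18 and 276 reads), NF1P1 2 (10, 16, 4 and 204) and NF1P6 2 (1, 7, 0 and 130). CHEK2P2, a copy of the checkpoint kinase gene CHEK2, had 4 (9, 13, 2 and 227 reads). The parent genes had intervals but no member: NF1 had 215, 150, 354 and 480 reads over 8 intervals and CHEK2 85, 86, 152 and 379 over 5. BRAFP1, on the X chromosome between 75582709 and 75584665, had 4 intervals, all members but overlapping more than 1 annotated gene (9, 3, 6 and 207 reads), while BRAF had 97, 96, 100 and 417 over 11 intervals. Single members lay in PTENP1 (3, 2, 8 and 66 reads), MAP2K1P1 (4, 2, 4 and 73), IDH1P1 (1, 2, 0 and 42), FLT1P1 (0, 2, 0 and 57) and RAD52P1 (1, 0, 0 and 43). How reads that match both a pseudogene and its parent were assigned was not given in the sources used here, so all pseudogene values are uncertain.

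Over the 25 genes with most members, which hold 225 of the 692, there were 210 intervals that missed the rule. Of these 172 (81.9%) had their highest CPM in HOS sgNAT10, against 24.9% of all non-members and 33.8% of those in protein-coding genes. In HOS sgNAT10, 107 of the 210 had under 30 reads. The 25 genes were chosen for their members, so a high share follows in part from that choice. Some of these intervals, as in NTRK3 and ROS1, were near empty in the other libraries, which nearly fixed their order. The share is therefore no support for the pattern. The share was 82.9% to 83.3% with TMM, median-of-ratios or totals without the ribosomal RNA block. Exceptions among the 25 genes were ERBB4 (6 of 16), LINGO2 (6 of 18) and TSHR (1 of 2).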

How the data were processed

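The values are counts: raw reads per peak interval, in 2 deposited tables (1 for each cell line) that share 31395 intervals. Column names give the cell line and genotype, and the 4 libraries were taken as acRIP from the tables' names, which call them RIP counts. Inputs and 7 blank columns were not used here. Per the submitters' processing notes the build was GRCh38 and FastQC, STAR, SAMtools and deepTools were used, with no role stated; the peak caller, counter, strand setting, treatment of multiply mapping reads and whether starts count from 0 are not given in the sources used here.

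Counts were scaled to each column's total. Totals cover intervals only and are not sequencing depth. An interval was assigned to the single protein-coding gene it overlapped, otherwise to the single annotated gene, in the RefSeq gene table (GRCh38.p14, 59792 genes). The alternatives were TMM (edgeR 4.0.16, R 4.3.3), median-of-ratios factors, totals without the ribosomal RNA block, other limits and 1 added count. Scripts ran in Python 3.11.15 with pandas 2.3.3 and scipy 1.17.1, and were tested on simulated data. Named were the 25 genes with most members, the 10 strongest members outside genes and in single-member genes, NAT10, and 3 intervals on each side of each limit; other genes come from the lists, and a few genes are not reported here. The members and lists were chosen with earlier results of these data known. Intervals and floors cover counting error only, since no molecular identifiers mark separate molecules.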

Additional observations from a re-analysis of the deposited data

Results flagged for a closer look

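Among the reported genes with most members, 15 had 30 or more 143B reads over their members. In 11 of these the summed members were lower in the 143B library labelled sgNAT10 than in 143B NC. The rule makes them higher in HOS sgNAT10 than in HOS NC. ALK (1.49 CPM in 143B NC and 2.46 in the 143B library labelled sgNAT10), ERBB3 (1.99 and 2.41), NTRK2 (0.597 and 1.3) and KDR (1.24 and 1.43) went the other way. By single interval, 143B NC was above the 143B library labelled sgNAT10 in 377 of all 692 members. The share of all intervals or genes with this order is not given here, so the order is not shown to be particular to members. Listed genes without a member had either order in 143B NC and the 143B library labelled sgNAT10. Kinases without a member summed to 7326 and 3800 reads, and housekeeping genes to 13613 and 20128. The opposite direction in the cell lines is what brought the 11 genes here. It was not tested, since each group has 1 library, and the HOS direction is set by the rule. As log2 of sgNAT10 over NC in CPM, the 143B and HOS values were -3.38 and 7.48 for CDH1, -1.91 and 4.61 for SLC30A4-AS1, -1.71 and 5.13 for ABCG1, and -1.68 and 7.36 for TMPRSS2. They were -1.40 and 3.72 for SYNE3, -1.09 and 3.83 for LINGO2, -1.06 and 3.61 for SLX4, and -1.02 and 3.20 for CLDN14. Among receptor tyrosine kinases they were -0.94 and 6.85 for RET, -0.43 and 3.70 for FLT4, and -0.37 and 4.88 for PDGFRB. The CDH1 value rests on 28 and 3 reads in 143B (exact 95% interval of the log2 ratio -5.74 to -1.68, counting error only) and that of ABCG1 on 280 and 95 (-2.06 to -1.37). For PDGFRB (-1.11 to 0.36) and FLT4 (-1.21 to 0.33) the interval spans 0, so the 143B order was not resolved at this depth. The 11 genes kept this order with TMM, median-of-ratios factors and totals without the ribosomal RNA block. With TMM or median-of-ratios factors, 13 of the 15 were lower. The NAT10 interval also had more reads in the 143B library labelled sgNAT10 than in 143B NC, 130 against 65. Whether this is linked to the order of the 11 genes was not tested.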

How the results depend on the processing

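The number of members depended most on the limits of the rule. It was 215 with a minimum of 100 reads, 1252 at 4-fold, 418 at 16-fold and 1155 with HOS NC as the only comparison library. With TMM it was 607 (597 shared with the 692), with median-of-ratios factors 590 (582 shared), and without the ribosomal RNA block 628 (623 shared). Genes with a member numbered 105 at a minimum of 100 reads, 431 at 4-fold, 140 at 16-fold and 409 with HOS NC alone, and cancer panel genes 16 at a minimum of 100 reads and 44 at 4-fold. The median gap moved to 976 bp at a minimum of 100 reads, 1718 bp at 4-fold and 3461 bp at 16-fold, and the median width to 168 bp at a minimum of 10, 186 bp at a minimum of 100 and 187 bp at 4-fold. The share outside genes was 23.4% at 4-fold, 32.5% at 16-fold and 20.1% with gene spans widened by 10000 bp. The other 19 comparisons moved less than 1.5 times for counts, or stayed within the 95% interval. At 1 to 3 reads the other libraries have no usable order. No paired analysis was possible because no result here comes from a test and the labels give no replicate numbers. The cause of the changes was not tested beyond the limits' own construction.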

Other observations

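Genes of drug metabolism and transport also held members, in a list of 45 genes drawn up after the values were seen. Of 22 with an interval, 8 (36.4%, against 2.66% of all protein-coding genes with an interval) held 9 members with 33 to 130 reads in HOS sgNAT10. UGT2B17, a steroid glucuronosyltransferase, had 1, 4, 0 and 130 reads in 143B NC, the 143B library labelled sgNAT10, HOS NC and HOS sgNAT10, and CYP3A4, a major drug-oxidising enzyme of liver, had 0, 2, 0 and 40. ABCB1, the drug efflux pump P-glycoprotein, had both of its intervals as members, with 46 and 41 reads in HOS sgNAT10. Single members lay in ABCC2, ABCC6, CYP19A1, CYP2B6 and CYP4B1. The 33 other intervals of the list were highest in HOS sgNAT10 in 24.2% of cases, against 24.9% of all non-members and 33.8% of those in protein-coding genes. With median-of-ratios factors these shares were 15.2%, 22.7% and 26.8%.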
